A study of Mus musculus with 16 samples.

Results

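Dorsal skin of iK5-TERT mice was compared 24 h after an injection given to silence the Tert transgene (TERT-off) with skin of mice left to express it (TERT-on). The arrays were chosen by their titles, which give the time as 24 hr, and there were 4 of them among the 16 arrays of the series: 2 of TERT-off skin and 2 of TERT-on skin. All mice carried K5tTA-tetop-TERT, in which a transactivator driven by the keratin 5 promoter switches on mouse TERT unless doxycycline is present. The keratin 5 promoter is active in basal epidermis and the outer root sheath, so the transgene concerns only part of the cells of a biopsy. Both cohorts drank doxycycline (5 µg/ml) until postnatal day 10 to 21 and then none, were biopsied at day 60, and are labelled as being in anagen. The TERT-off mice were injected with doxycycline (8 µg/g body weight) and the TERT-on mice with vehicle. Biopsies of 3 cm² were taken from each cohort at 0, 6, 12 and 24 h, as closely spaced serial biopsies; a replicate number within a cohort was read as 1 mouse, so each array of 24 h came from a mouse biopsied 3 times before. The subcutaneous fat was removed, and each array measured 1 biopsy. No group analysed here received doxycycline without the transgene, so loss of Tert and the drug itself cannot be told apart, and with 2 mice a cohort the difference between cohorts cannot be told apart from a difference between these mice.

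The hair follicle cycles between growth (anagen), regression (catagen) and rest (telogen). In anagen the matrix at the base of the follicle divides and makes the hair shaft and the inner root sheath, whose keratins and keratin-associated proteins are among the most abundant transcripts of skin, and melanocytes of the bulb pigment the shaft. Injured skin answers with cytokines and chemokines of keratinocytes, macrophages and mast cells, then with neutrophils and monocytes from the blood, while keratinocytes at the wound edge switch to stress keratins such as keratin 16 and fibroblasts remodel the matrix. All values here are from whole biopsies, in which fewer cells of a type and less RNA per cell cannot be told apart.

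The deposited values are intensities on a linear scale. Those under 7.71 were raised to that floor before log2 was taken, and a log2 difference against arrays under the floor is given as that value "or more". A difference is TERT-off minus TERT-on at 24 h unless another time is named. Its standard error (SE) is from a limma fit over all 16 arrays, and a gene was called at an adjusted p under 0.05. A gene is said to rise or fall where it was called with a difference above or below 0. These words compare the cohorts at 24 h and do not describe a change over time. The median intensity of an array lay between 32.9 and 36.3, and the ratio of 5′ to 3′ Gapdh signal on the arrays of 24 h between 1.01 and 1.12; 1 array of 0 h, TERT-on replicate 1, stood apart at 0.0599. Keratin 5, whose promoter drives the transactivator, was at 3835 and 3908 on the TERT-on arrays and at 4327 and 4033 on the TERT-off arrays. Tert itself was at 22.6 and 60.1 in TERT-on skin and at 14.9 and 14.04 in TERT-off skin. The cohorts did not overlap, but the difference of -1.35 (SE 0.43) was not called (limma, adjusted p = 0.114). Tert had been higher in every mouse at 0 h, with intensities of 357 and 216 for TERT-on and 185 and 199.9 for TERT-off, so it was lower at 24 h in both cohorts; where its probe set lies relative to the transgene is not known here.

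For the 0 h arrays of TERT-off skin the labels already give doxycycline as injected, whereas the study describes its first biopsy as taken just before the drug was given. The latter is followed here, and if the labels are right the differences of 0 h are not a baseline. 1 mouse stood apart at 0 h. TERT-off replicate 1 had far lower hair shaft keratins at 0 h, although its label gives anagen. The mean log2 level of 8 of them was 4.52 in this mouse, against 10.61 in TERT-off replicate 2 and 10.28 and 8.77 for TERT-on. Other follicle genes of this mouse were lower by less at 0 h. Hair matrix regulators were at 7.02 (8.03 to 8.39 in the other mice) and melanocyte genes at 7.27 (8.19 to 8.71). At 24 h this mouse had them at 6.50 and 5.51. Its neutrophil genes were then the highest of the 4 mice as well (6.22 against 4.68 to 5.54). TERT-off replicate 2 held its hair keratins at 6 h (10.30) and had lower values at 12 h (6.44) and 24 h (5.67). The median difference at 0 h is therefore given beside that of 24 h for some of the lists. The value of 0 h is given for some of the genes. Among the lists given without it, the 0 h median was -0.59 for hair matrix regulators and 0.55 for antimicrobial proteins of keratinocytes. It was 0.53 for acute cytokines, 0.50 for CXC chemokines and -0.50 for the developmental genes that the study names.

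At 24 h TERT-off skin had far higher intensities of neutrophil, chemokine, cytokine and wound genes than TERT-on skin, and far lower ones of hair and pigment genes. Of 12579 genes tested, 230 rose (1.83%) and 74 fell (0.588%); by probe set, 352 of 25564 rose (1.38%) and 107 fell (0.419%). A limma fit of the 4 arrays of 24 h alone called 618 genes higher (4.91%) and 502 lower (3.99%), and 2857 genes (22.7%) had an unadjusted p under 0.05 in the fit over all arrays. The median difference of the genes that rose was 1.85 on the log2 scale, from 0.39 to 5.06, and 200 of them differed by at least 2-fold. The genes that fell had a median of -1.09, from -5.84 to -0.41, and 43 of the 74 differed by at least 2-fold. Over the inflammation lists joined, 41 of 99 measured genes rose, none fell, and the median was 1.52 (0.62 at 0 h). Over all genes it was 0.01. Over the wound lists 16 of 69 rose, 1 fell, and the median was 0.78 (0.20 at 0 h). Over the genes of the hair shaft, its associated proteins and the inner root sheath the median was -4.64 (-2.33 at 0 h). Yet 0 of these 59 were called by limma, 30 had an unadjusted p under 0.05, and 32 were lower by the fit of the 24 h arrays alone.

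**Figure D1:**
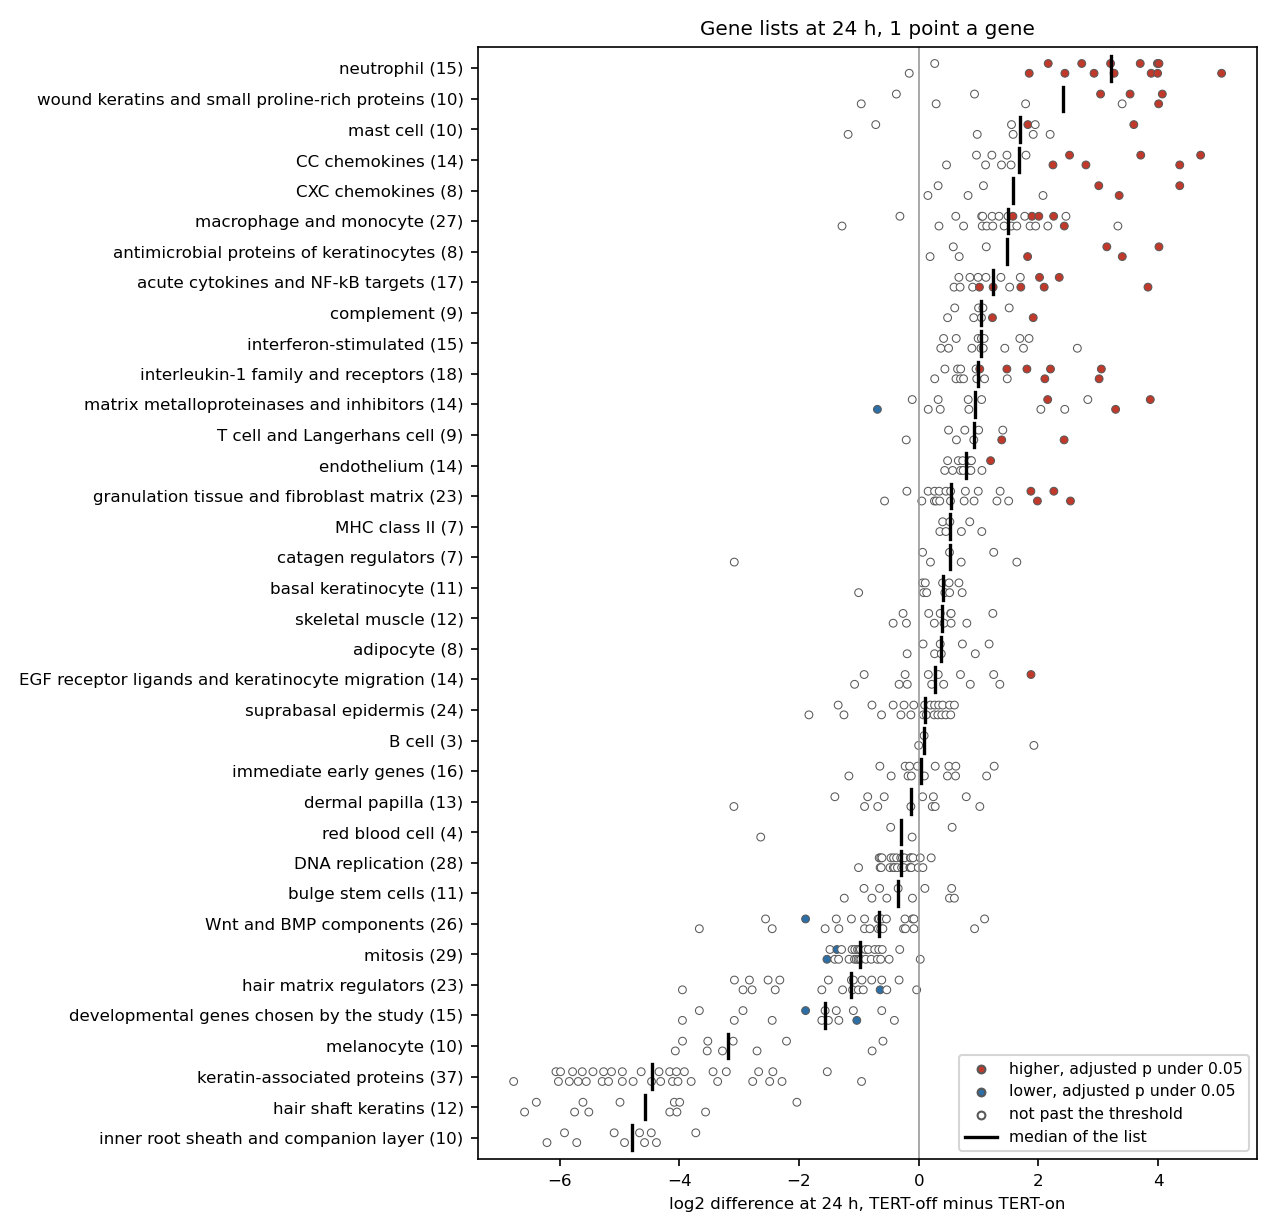
Log2 difference at 24 h, TERT-off minus TERT-on (horizontal axis), of each measured gene of 36 lists (vertical axis, with the number of genes). Filled points passed the limma test, open points did not, and bars mark medians; the follicle lists lie farthest to the left with open points, and the neutrophil list, with a median of 3.21, lies farthest to the right.

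The counts depended on which mice were kept. Without TERT-off replicate 1 there were 220 genes higher and 228 lower, and without TERT-off replicate 2 there were 172 and 261. Without TERT-on replicate 1 no gene was called (2023 had an unadjusted p under 0.05), and without TERT-on replicate 2 there were 7 higher and 0 lower; each of these fits leaves 1 TERT-on array a time, assumed to vary like the other groups. Of the arrays themselves, 3706 of 12528 genes (29.6%) had both TERT-off values above both TERT-on values at 24 h and 3538 (28.2%) had them below, so that lack of overlap by itself sets few genes apart.

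Neutrophil genes were raised most. Of 15 measured members 13 rose, with differences from 1.85 to 5.06. This count depended on the filter. With genes kept only if above the table's median on at least 4 arrays, 10 were called and the median was 2.83. With no filter on dim probe sets 6 of the 15 were called. S100a9, a calcium-binding protein that fills the cytoplasm of neutrophils, was at 107 and 185 on the TERT-on arrays and at 4784 and 4604 on the TERT-off arrays. Both TERT-off mice were thus far above both TERT-on mice, and S100a9 rose by 5.06 (SE 0.53, limma adjusted p = 0.00243), about 33.4-fold. On the TERT-on arrays of 6 h it was at 363 and 97.5. Lcn2, an iron-sequestering protein of neutrophil granules and of stressed keratinocytes, was at 63.99 and 156 in TERT-on and 1815 and 1437 in TERT-off skin, a rise of 4.01 (SE 0.71, adjusted p = 0.0224) with a difference of 1.74 at 0 h. The receptors Clec4d and Clec4e of myeloid cells rose by 3.99 and by 3.99 or more. Mmp8, the collagenase of neutrophil granules, was under the floor on both TERT-on arrays (2.43 and 2.28) and at 89.9 and 144 on the TERT-off arrays, a rise of 3.88 or more. Cxcr2, the receptor by which neutrophils follow CXC chemokines, rose by 3.70 or more, and Csf3r, the receptor of their growth factor, by 3.27 or more. Ngp, a granule protein made by immature neutrophils, differed by -0.16 and was not called. Of 28 genes on the list 21 were on the array. The 6 that were too dim to be kept, Camp, Ltf, Mpo, Elane, Trem3 and Cd177, had a median of 0.23. With them the list's median was 2.44 rather than 3.21. At 0 h the median of the 15 genes was already 1.34.

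Among the chemokines that draw these cells, 3 of 8 CXC and 6 of 14 CC chemokines rose and none fell. Cxcl1, which keratinocytes and macrophages release to attract neutrophils, was at 37.3 and 27.2 in TERT-on skin and 279 and 378 in TERT-off skin, and rose by 3.35 (SE 0.46, adjusted p = 0.00826). Ppbp, carried by platelets, stood at 6.27 and 8.90 and 277 and 105 in the same order, a rise of 4.36 or more. Cxcl13, known for attracting B cells to lymphoid follicles, was at 110.0 and 134 in TERT-on and 1103 and 865 in TERT-off skin. Its rise of 3.01 (SE 0.22) had the lowest adjusted p of the genes named here, 0.000897 by limma. Ccl2, the main attractant of monocytes, went from 16.7 and 20.9 to 468 and 512 between the cohorts, a rise of 4.71 (SE 0.55, adjusted p = 0.005). Its neighbours in function followed the same pattern: Ccl7 rose by 4.36 and Ccl12 by 3.71, with differences of 1.97 and 1.65 at 0 h. Ccl4, which attracts macrophages and T cells, rose by 2.79. Ccl6 and Ccl9, which act on monocytes and macrophages, rose by 2.24 and 2.52. The CC chemokines that were not called lay above 0 as well, among them Ccl11, which attracts eosinophils (1.79), and Ccl27a, made by resting keratinocytes (0.47). The median of the 14 CC chemokines was 1.67 at 24 h and 0.85 at 0 h. TERT-on skin had itself been higher in some chemokines: at 6 h Ccl2 was at 85.7 and 46.1 and Cxcl1 at 132 and 43.3. Filtering matters for the CXC list, whose median was 1.58 over the 8 genes kept and 0.82 over the 11 on the array.

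The promoters of 5 genes on which these results turn are shown with the motifs found in them. Each runs from 250 bases before to 50 after the start given by RefSeq for GRCm38.p6, read 5′ to 3′ along the gene. Capitals mark matches to the NF-kB motif and to the AP-1 motif TGANTCA on either strand, to the TCF/LEF motif CTTTGA on either strand, and to the TATA box as TATAAA on the gene's strand, with overlapping matches joined. Cxcl1 (chr5:90890995-90891294, + strand), Il6 (chr5:30012864-30013163, + strand), S100a9 (chr3:90695672-90695971, - strand) and Cxcl13 (chr5:95956689-95956988, + strand) rose, and Krt31 (chr11:100050502-100050801, - strand) is a hair shaft keratin with far lower values.
Cxcl1: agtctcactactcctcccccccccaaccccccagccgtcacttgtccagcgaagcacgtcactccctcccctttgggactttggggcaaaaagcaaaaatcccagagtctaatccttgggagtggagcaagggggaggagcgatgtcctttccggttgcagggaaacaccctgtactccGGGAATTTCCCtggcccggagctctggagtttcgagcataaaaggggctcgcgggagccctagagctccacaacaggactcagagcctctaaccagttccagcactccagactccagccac
Il6: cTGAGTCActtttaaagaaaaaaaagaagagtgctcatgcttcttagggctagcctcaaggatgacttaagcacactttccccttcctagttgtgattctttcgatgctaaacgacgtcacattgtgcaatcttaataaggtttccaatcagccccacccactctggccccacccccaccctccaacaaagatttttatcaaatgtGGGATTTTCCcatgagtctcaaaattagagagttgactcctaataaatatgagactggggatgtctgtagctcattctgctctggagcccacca
S100a9: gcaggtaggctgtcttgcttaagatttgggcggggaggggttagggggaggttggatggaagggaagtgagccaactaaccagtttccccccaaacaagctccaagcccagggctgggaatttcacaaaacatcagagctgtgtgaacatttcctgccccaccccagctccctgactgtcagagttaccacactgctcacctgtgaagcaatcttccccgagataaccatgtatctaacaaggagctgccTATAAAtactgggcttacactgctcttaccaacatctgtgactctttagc
Cxcl13: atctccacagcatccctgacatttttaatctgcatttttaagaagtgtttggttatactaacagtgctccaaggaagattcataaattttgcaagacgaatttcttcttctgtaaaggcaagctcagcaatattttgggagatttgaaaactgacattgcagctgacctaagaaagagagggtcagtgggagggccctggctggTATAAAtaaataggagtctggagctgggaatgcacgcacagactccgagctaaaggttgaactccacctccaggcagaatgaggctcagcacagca
Krt31: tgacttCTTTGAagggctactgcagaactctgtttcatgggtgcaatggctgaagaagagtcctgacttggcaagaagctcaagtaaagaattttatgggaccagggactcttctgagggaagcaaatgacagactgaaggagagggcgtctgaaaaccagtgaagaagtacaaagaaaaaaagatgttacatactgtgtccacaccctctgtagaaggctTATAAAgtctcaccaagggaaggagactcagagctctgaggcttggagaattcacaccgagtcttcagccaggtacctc
The Cxcl1 window holds an NF-kB match, that of Il6 an NF-kB and an AP-1 match, those of S100a9 and Cxcl13 a TATA box, and that of Krt31 a TATA box and a TCF/LEF match. Of the 230 genes that rose 175 had a promoter in the table. NF-kB matches stood in 11.4% of them, against 10.2% of 10090 genes tested and 8.18% of all 27025 promoters. AP-1 matches stood in 28 of the 175 genes that rose, 5.41% of genes tested and 7.93% of all promoters. The TATA box stood in 35 of the 175, in 5.32% of genes tested and in 8.88% of all promoters, and TCF/LEF matches in 28 of the 175, 12.1% and 16.2%. Of the 74 genes that fell 54 had a promoter in the table, with an NF-kB match in 5 of them, an AP-1 match in 0, a TATA box in 2 and a TCF/LEF match in 3. These shares describe letters in a window and were not tested.

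Interleukin-1 genes and acute cytokines rose beside the chemokines. Of 18 measured members of the interleukin-1 family and its receptors 7 rose, and all 18 lay above 0. Il1b, the cytokine that starts much of the acute response, was at 55.2 and 60.3 in TERT-on skin and 532 and 409 in TERT-off skin, a rise of 3.01 (SE 0.30, adjusted p = 0.00161). Il33, an alarm signal released by damaged epithelium, rose by 3.05, although TERT-off replicate 1 lacks a value for it. Il1f6 and Il1f9, epidermal cytokines of this family, rose by 2.11 and 2.20, but both had differed by 3.33 and 1.71 at 0 h. In TERT-off skin Il1f6 was at 382 and 215 at 0 h and at 308 and 189 at 24 h. Il1rn, the receptor antagonist that limits the response, differed by 0.70 and was not called. Il6, which drives the acute-phase response, lay under the floor on both TERT-on arrays (5.55 and 5.18) and at 102 and 118 on the TERT-off arrays, a rise of 3.83 or more (SE 0.64, adjusted p = 0.018). Of the acute cytokines and NF-kB targets 7 of 17 rose, and in all 17 both TERT-off arrays exceeded both TERT-on arrays. Ptgs2, the inducible enzyme of prostaglandin synthesis, rose by 2.35, and Socs3, a feedback inhibitor of cytokine receptors, by 2.02. In TERT-on skin at 6 h Ptgs2 was at 65.1 and 28.6 and Il6 at 52.2 and 12.5. In TERT-off skin at 24 h Ptgs2 was at 66.0 and 48.0. Csf1, the growth factor of macrophages, rose by 2.10 on its brightest probe set and by 1.92 on another, while the other two were at 1.13 and 0.26 and were not called. Nfkbia, the inhibitor of NF-kB that is itself an early target, differed by 0.59, not called.

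Markers of resident and recruited leukocytes were higher to a smaller extent. Of 27 macrophage and monocyte genes 5 rose, 25 lay above 0, and the median was 1.49, against 0.85 at 0 h. Cd14, a co-receptor for bacterial lipopolysaccharide, was at 137 and 149 in TERT-on and 676 and 880.1 in TERT-off skin and rose by 2.43 (SE 0.43, adjusted p = 0.0219). Cd163, the haemoglobin scavenger receptor of tissue macrophages, rose by 1.89, Clec4n by 2.25 and Fcna by 2.01. General macrophage markers had differences of 1.14 for Adgre1, 1.49 for Cd68 and 0.62 for Csf1r, none called, and Arg1, of alternatively activated macrophages, one of -1.28. By the fit of the 24 h arrays alone 20 of the 27 rose.

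Mast cell genes had a median of 1.70 over 10 members, with 2 called, and of 0.85 at 0 h. Hdc, the enzyme that makes histamine, was at 14.3 and 15.3 in TERT-on skin and 134 and 239 in TERT-off skin, and rose by 3.59 (SE 0.43, adjusted p = 0.0054) from a difference of 0.42 at 0 h. For Cpa3, a protease stored in mast cell granules, the called difference was 1.82, with 1.09 already at 0 h. Its TERT-off values were 1094 and 858 at 0 h and 998 and 852 at 24 h. Those of TERT-on skin were 332 and 626 at 0 h and 297 and 229 at 24 h. The tryptase gene Tpsab1 (-1.18) and Kit (-0.72), which melanocytes also express, lay below 0. Among 9 genes of T cells and Langerhans cells 2 rose, Il7r by 2.43 and Cd3g by 1.39. B cells left little trace on either cohort's arrays: 0 of 3 measured genes were called by limma (1, Jchain, had an unadjusted p under 0.05), and Ighm differed by -0.00. By limma 0 of 7 MHC class II genes and 0 of 15 interferon-stimulated genes passed the test (2 and 9 had an unadjusted p under 0.05), with medians of 0.52 and 1.05. Ifit1 varied widely within TERT-off skin (45.5 and 184) over a TERT-on level of 21.8 and 9.72. Of 9 complement genes Cfp, which stabilises the alternative pathway, rose by 1.91 and C1s1 by 1.23; another probe set of Cfp differed by -0.17.

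Stress genes of keratinocytes rose unevenly. Krt16, the keratin that keratinocytes make after injury, was at 155 and 281 in TERT-on skin and 1770.4 and 1657 in TERT-off skin, and rose by 3.04 (SE 0.59, adjusted p = 0.0295). Among the small proline-rich proteins, crosslinked into the cornified envelope, Sprr2d rose by 3.53 from a difference of 2.75 at 0 h, and Sprr2f and Sprr2i by 4.07 and 4.01 or more. These were 4 calls among 10 measured members. Krt6b, a partner of keratin 16, differed by 3.40 without passing the test. Krt6a (0.29) and Krt17 (-0.37), which the follicle's outer root sheath and companion layer also make, were close to level, and Sprr1a was at -0.96. The list's median was 2.41 over these 10 (1.00 at 0 h) and 0.93 with the 3 members too dim to be kept. TERT-on skin had passed through higher levels itself: its mean log2 level of the 10 genes was 9.47 and 8.88 at 6 h against 7.41 and 8.33 at 24 h, and TERT-off skin had 10.13 and 9.56 at 24 h.

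Of 8 antimicrobial proteins of keratinocytes 4 rose, Lcn2 among them. Slpi, an inhibitor of neutrophil proteases, was at 73.5 and 93.3 in TERT-on and 648 and 826 in TERT-off skin, a rise of 3.14 (SE 0.71, adjusted p = 0.0487). Defb3, an inducible defensin, rose by 3.40 or more, and Il24, a cytokine that acts on keratinocytes, by 1.82. Il24 was kept only through the 2 TERT-off arrays of 24 h (54.0 and 64.7). On every other array it was at 31.94 or less, so its call is not evidence about the list. With genes kept only if above the table's median on at least 4 arrays, 2 members were called, and with no filter 0. Defb1, the constitutive defensin, differed by 0.68 and was not called. The median was 1.47 over these 8 and 0.68 over the 11 on the array. TERT-on skin had itself been higher in some of them: at 12 h Slpi was at 718 and 201 and Lcn2 at 625 and 112. Defb3 was at 20.1 or less on every TERT-on array. Of 14 genes of EGF receptor signalling and keratinocyte migration the ligand Epgn alone rose, by 1.88. It was at 615 and 552 in TERT-off skin at 24 h, and at 1032 and 467 in TERT-on skin at 6 h.

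Of 14 matrix metalloproteinases and their inhibitors 3 rose and 1 fell, and the median was 0.94 at 24 h and 0.20 at 0 h. Timp1, the inducible inhibitor of metalloproteinases, was at 77.9 and 71.2 in TERT-on and 1478 and 802 in TERT-off skin, a rise of 3.87 (SE 0.47, adjusted p = 0.00579). Timp3, the inhibitor bound to the matrix, fell by 0.69 from 842 and 708 to 455 and 503, the 1 fall among the wound genes; its 3 other probe sets differed by -0.15 to -0.49, none called. Mmp13, a collagenase of healing dermis, rose by 3.29 or more and Mmp19 by 2.16. Mmp3 (2.44) and Mmp12 (2.83), of fibroblasts and macrophages, did not pass the test. Of 23 genes of granulation tissue 4 rose: Lox and Loxl1, which crosslink collagen and elastin, by 2.26 and 1.87, Ccn1, a matricellular protein, by 1.98, and Tnc, the tenascin of wound beds, by 2.54 with no value in TERT-off replicate 1. The fibrillar collagens and the contractile genes differed little, as in Col1a1 (0.05), Col3a1 (0.46) and Acta2 (-0.20). All 14 endothelial genes lay higher on both TERT-off arrays, with a median of 0.79, and Emcn, a glycoprotein of capillary and venous endothelium, rose by 1.20. Immediate early genes, which peak within the first hour after a stimulus, had a median of 0.04 and 0 calls by limma among 16 (7 at an unadjusted p under 0.05), with Dusp1 at 1.26 and Egr3 at -1.17.

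**Figure D2:**
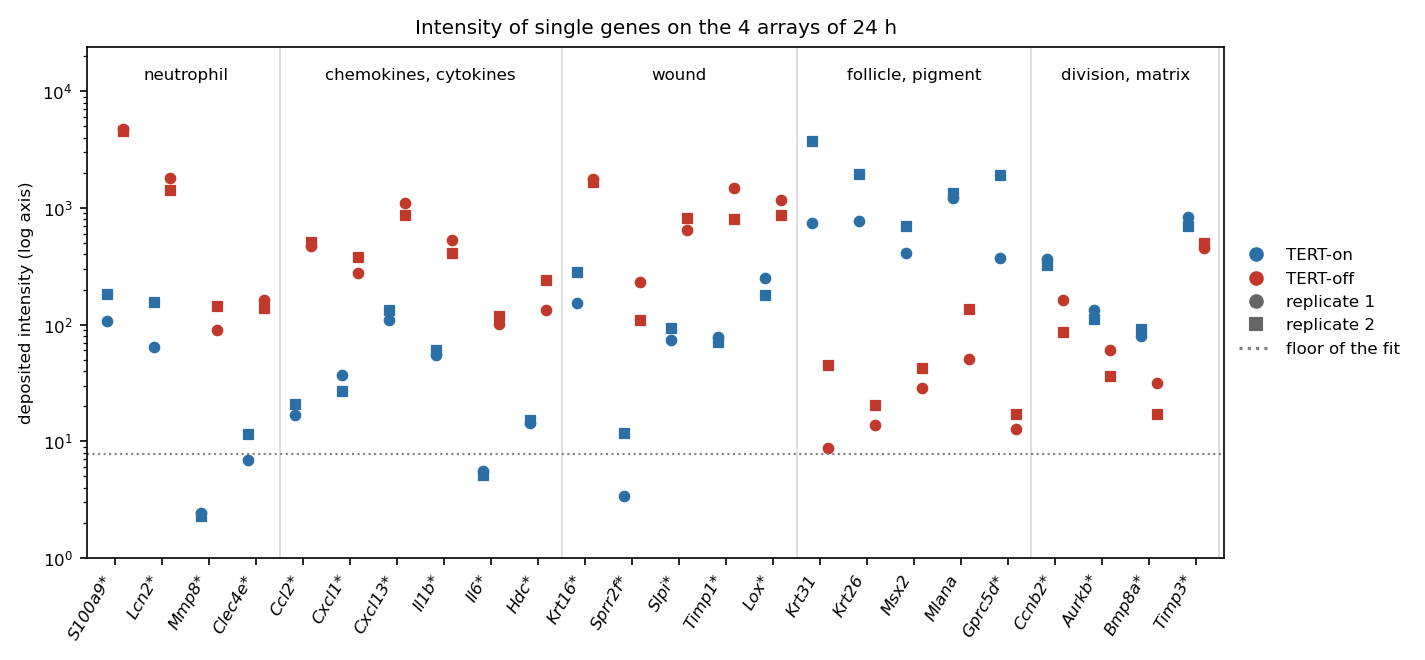
Deposited intensity on a log axis (vertical) of 24 genes (horizontal) on the 4 arrays of 24 h; circles are replicate 1, squares replicate 2, the dotted line is the floor of the fit, and an asterisk marks a gene called by limma. The colours separate fully in every gene, in opposite directions for the inflammation and wound genes and for the follicle genes, and S100a9 is at 107 and 185 in TERT-on and 4784 and 4604 in TERT-off skin.

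Genes of the hair shaft and its sheath had the largest differences of all lists, on the low side. Krt31, an acidic keratin of the hair cortex, was at 746 and 3716 in TERT-on skin and 8.73 and 45.3 in TERT-off skin, a difference of -6.39 (SE 2.50). The cohorts did not overlap, but the limma fit over all arrays did not call it (adjusted p = 0.184), while the fit of the 24 h arrays alone did (0.0169). All 12 hair shaft keratins lay below 0 (median -4.57, from -6.58 or more in size to -2.03), 11 of them without overlap. Krtap11-1, of the matrix between the keratin filaments, differed by -6.77 or more and Krtap4-6 by -6.06. The 37 keratin-associated proteins had a median of -4.46, and 27 did not overlap. In 18 of them a TERT-off array lay under the floor. Their median was -4.93 with no floor beyond the lowest value and -3.47 with the floor at the table's median. The TERT-on mice themselves differed in this family, with mean log2 levels of 7.14 and 10.63. Members of this family and of the keratin clusters are similar in sequence, so probe sets may share signal between them.

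The inner root sheath and companion layer kept the cohorts apart in every member. Krt26, a keratin of the inner root sheath, was at 780.5 and 1959 in TERT-on and 13.8 and 20.3 in TERT-off skin, and Krt72 at 1016 and 2713 and 24.4 and 30.9. Their differences of -6.21 and -5.92 had adjusted p of 0.124 and 0.129 in the limma fit over all arrays and of 0.0023 and 0.00255 in that of the 24 h arrays alone. None of the 10 members overlapped, and their median was -4.79. At 0 h the medians of the 3 lists were -1.64 for the hair shaft keratins, -2.41 for the keratin-associated proteins and -2.38 for the sheath, for which TERT-off replicate 1 stood apart. Without this mouse the medians at 24 h were -4.11, -3.30 and -4.53, and limma called 6, 5 and 9 genes lower; without TERT-off replicate 2 they were -5.08, -5.87 and -5.10, with 7, 12 and 9 lower. At 24 h neutrophil and follicle genes differed between the cohorts in opposite directions. The mean log2 level of the neutrophil genes was 4.87 and 5.22 in TERT-on and 8.04 and 8.25 in TERT-off skin. For the hair shaft keratins it was 8.43 and 10.75 in TERT-on and 4.13 and 5.67 in TERT-off skin. In TERT-off replicate 1 the neutrophil level was 6.22 at 0 h, while the hair shaft keratins were already at 4.52. The part of either list in the values of the other was not tested.

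**Figure D3:**
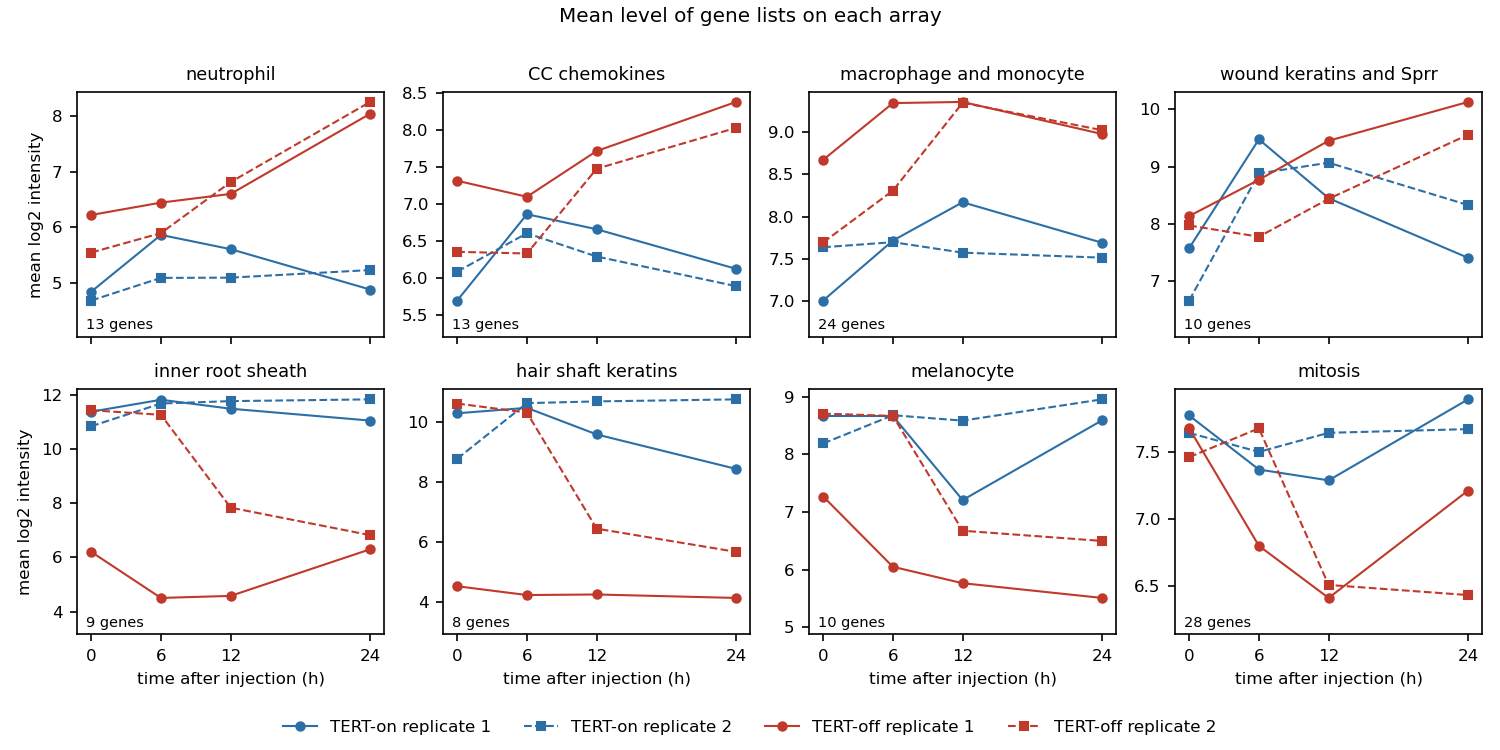
Mean log2 intensity (vertical) of 8 gene lists on every array against the time after injection in hours (horizontal), 1 line a mouse, over the genes with a value on all 16 arrays. Neutrophil and CC chemokine lines of both TERT-off mice are highest at 24 h. The hair shaft and inner root sheath lines of TERT-off replicate 1 are low from 0 h on, and those of TERT-off replicate 2 are low from 12 h.

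Regulators of the hair matrix were lower with their products. Msx2, a homeobox factor needed for hair shaft differentiation, was at 411 and 705 in TERT-on and 28.6 and 42.6 in TERT-off skin, a difference of -3.95 (SE 1.03, adjusted p = 0.0733, and 0.00325 with the 24 h arrays alone). Hoxc13, which drives hair keratin genes, differed by -3.08, Dlx3 by -2.94 and Shh, the signal of the growing bulb, by -2.40. All 23 measured members lay below 0, with a median of -1.12, and 15 were lower by the fit of the 24 h arrays alone. In the main test Gata3, a factor of the inner root sheath, fell by 0.64 (SE 0.14, adjusted p = 0.0491), from 1489.5 and 1551 to 901 and 1050.1. Runx1 was at -0.03 and Lef1, the partner of beta-catenin, at -0.62, so the list was not lowered evenly.

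Of 26 Wnt and BMP components Bmp8a fell, by 1.89 (SE 0.43, adjusted p = 0.0494), from 80.03 and 92.6 in TERT-on to 31.7 and 17.02 in TERT-off skin. Bambi, a decoy receptor that damps BMP signals, was at 419 and 780.1 and 46.3 and 43.9, a difference of -3.66 that was not called (adjusted p = 0.0946), and Fzd5, a Wnt receptor, differed by -2.56. The feedback targets of Wnt signalling Axin2 (-0.23) and Nkd1 (-0.08), were near level, and Nkd2 was at -1.38. Sfrp2 (1.10) and Grem1 (0.93), inhibitors of the Wnt and BMP ligands, lay above 0. In the list of 15 developmental genes that the study itself names from these samples, which is not independent evidence of direction, all lay below 0 with a median of -1.56 and 2 fell, Bmp8a and Ccnd2.

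Other compartments of the follicle differed less. The 13 dermal papilla genes had a median of -0.13, with Corin, a protease of the papilla, at 132 and 107 in TERT-on and 9.19 and 21.4 in TERT-off skin (difference -3.09, not called) beside Alpl at 0.23 and Fgf7 at 1.02. The 11 bulge stem cell genes had a median of -0.34, with Krt15 at 0.10, Cd34 at 0.60 and Sox9 at -0.91. Fgf5, the signal that ends anagen, was at 39.4 and 115 in TERT-on and 8.19 and 1.00 in TERT-off skin, and Igfbp3, a binding protein of IGF, at 217 and 116 and 383 and 641; neither was called, and the median of 7 catagen regulators was 0.52.

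Melanocyte genes were lower in both TERT-off mice. Mc1r, the receptor that switches pigment type, was at 215 and 209 in TERT-on and 11.1 and 14.4 in TERT-off skin, and Mlana, a melanosome protein, at 1225 and 1337 and 50.3 and 137. The differences of -4.07 and -3.95 were not called by limma over all arrays (adjusted p = 0.0828 and 0.0604) and were by the fit of the 24 h arrays alone (0.00155 and 0.0082). The pigment enzymes had differences of -3.52 for Tyr, -2.70 for Tyrp1 and -2.21 for Dct. The lineage factors Mitf (-0.78) and Sox10 (-0.60) had much smaller ones. Over the 10 genes, of which limma called 0 and 10 had an unadjusted p under 0.05, the median was -3.19 at 24 h and -0.37 at 0 h.

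Cell division genes were lower by less. Ccnb2, a mitotic cyclin, fell by 1.53 (SE 0.28, adjusted p = 0.0242) from 363 and 325 in TERT-on to 163 and 86.5 in TERT-off skin, and Aurkb, a kinase of chromosome segregation, by 1.37 from 134 and 111 to 61.1 and 36.6. These were the only 2 calls among 29 mitosis genes, of which 28 lay below 0 with a median of -0.99; the median at 0 h was -0.10. Without TERT-off replicate 1, 18 of them were called and the median was -1.37; without TERT-off replicate 2, 1 was called and it was -0.53. DNA replication genes differed less, with a median of -0.29 and 0 calls by limma among 28 (7 at an unadjusted p under 0.05). Ccnd2, a cyclin of the entry into the cell cycle, fell by 1.03, from 2275 and 1792 to 942 and 1033; its other 6 probe sets lay between -0.96 and -1.78, none called.

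The epidermis itself and the tissues beneath it differed little. Medians were 0.40 over 11 genes of basal keratinocytes, with Krt14 at 0.13, 0.11 over 24 of suprabasal epidermis, with Krt10 at 0.08, 0.37 over 8 of adipocytes, 0.39 over 12 of skeletal muscle and -0.29 over 4 of red blood cells, and limma called 0 of these 59 genes. At 0 h the medians of the basal and the muscle genes were -0.43 and -0.60. At an unadjusted p under 0.05 there were 5 of the basal, 4 of the suprabasal, 3 of the adipocyte, 2 of the muscle and 1 of the red cell genes. Tgm3 (-1.83) and Casp14 (-1.35), enzymes of cornification that the follicle also makes, were the lowest suprabasal members named here.

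The 12 largest falls among called genes came from outside the lists, apart from Bmp8a. Gprc5d, an orphan receptor expressed in the cells that make hair and nail keratin, was at 371 and 1927 in TERT-on and 12.7 and 17.04 in TERT-off skin, and fell by 5.84 (SE 0.87, adjusted p = 0.0213); its difference at 0 h, with no value in TERT-off replicate 2, was -6.60 or more in size. Rtkn2 fell by 3.20 or more, and had differed by -2.17 at 0 h. Dclk3, a kinase, fell by 2.84 and Nrg2, a ligand of ErbB receptors, by 2.22. Mycl, of the Myc family, went from 314 and 348 in TERT-on to 84.9 and 78.5 in TERT-off skin, a fall of 2.02 (SE 0.36, adjusted p = 0.0234). Cldn14, a tight junction protein, fell by 2.07, Cyp2s1, an epithelial cytochrome, by 1.87, Gas2l3, which binds the cytoskeleton, by 1.92, and the unnamed transcripts 6430571L13Rik and Gm5084 by 2.61 and 2.02. For Rab7b, which fell by 1.70 on its brightest probe set, the other probe sets were at 0.07 and 0.04, so that the gene's direction is uncertain. Among the rises outside the lists, AA467197 was at 12.5 and 17.2 in TERT-on and 338 and 258 in TERT-off skin. Its difference was 4.33 at 24 h and 3.09 at 0 h, when TERT-off skin was at 592 and 251.

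How much of the difference of 24 h was new since 0 h was tested as the difference at 24 h minus that at 0 h. By limma 1 gene of 12579 was higher (0.00795%) and none lower, while 921 (7.32%) had an unadjusted p under 0.05. The 1 gene was Cxcl13. Its high level was not particular to 24 h: at 6 h it was at 1291 and 926 in TERT-off and 242 and 226 in TERT-on skin. At 0 h it stood at 55.6 and 65.7 for TERT-on and at 78.3 and 77.02 for TERT-off, so the cohorts began close together, and its difference grew by 2.65 (SE 0.31, adjusted p = 0.0476). That call was close to the threshold: its limma adjusted p was 0.0673 with arrays centred on their medians, 0.0685 with the mouse ignored, 0.0693 with the replicate block, 0.0924 with no intensity trend, 0.117 without the 0 h array of low Gapdh ratio, and 0.104 to 0.813 with any 1 mouse left out. The change was 4.21 or more for Ppbp and 3.18 for Hdc, neither of which passed that test, and for Mmp8 and Il6, under the floor on 3 arrays of 0 h as well, its size is not known. For S100a9 it was 2.35 on top of 2.71 at 0 h, for Ccl7 2.40 on top of 1.97, and for Il1f6 -1.22. Over the 230 genes that rose, the median difference was 0.51 at 0 h and the median change 1.20; over the 74 that fell, these were -0.38 and -0.73. At 0 h 205 of the 230 and 70 of the 74 genes already differed with the same sign. The share over all genes tested was not counted, so these counts do not set the called genes apart. The differences of 0 h were not tested, and they did not always hold in both TERT-off mice. Ccl12 was at 141 and 18.8 in TERT-off and 13.6 and 19.7 in TERT-on skin at 0 h. S100a9 was at 411 and 227 in TERT-off and 54.8 and 39.8 in TERT-on skin. How many genes follow either pattern was not counted.

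**Figure D4:**
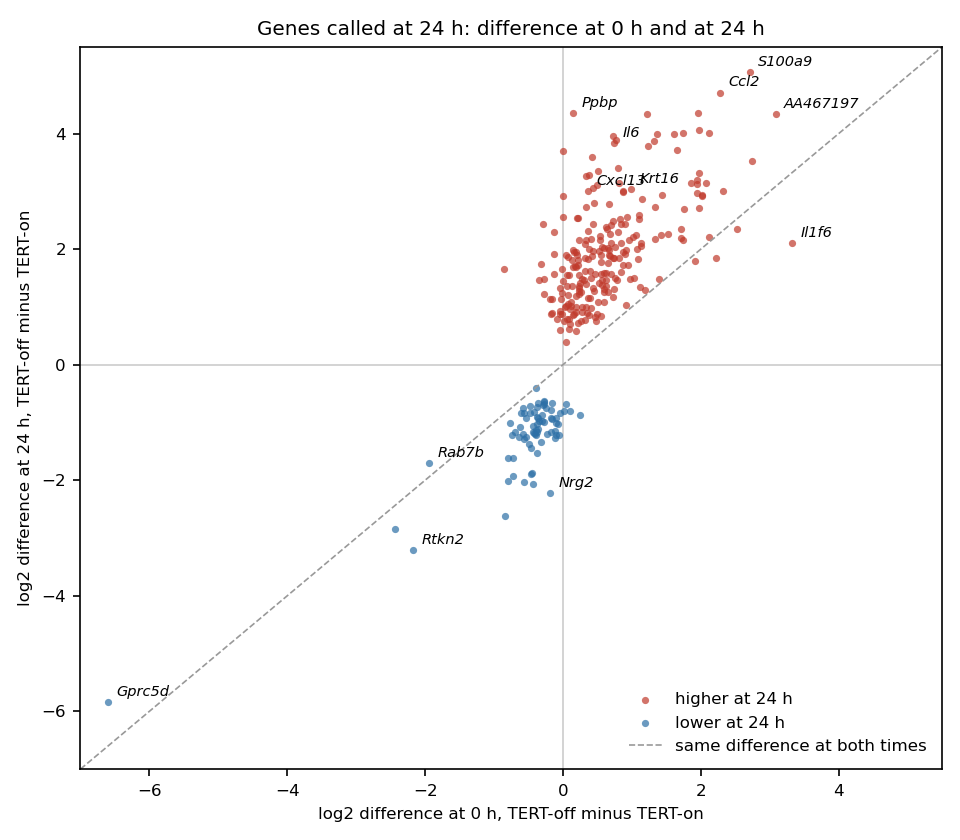
Log2 difference, TERT-off minus TERT-on, at 24 h (vertical) against that at 0 h (horizontal) of the genes called at 24 h; the dashed line marks equal differences. Most points that rose lie above the line and to the right of 0, Cxcl13 is at 0.36 and 3.01, and Il1f6, at 3.33 and 2.11, is a gene whose difference was smaller at 24 h than at 0 h.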

How the data were processed

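RNA of whole dorsal skin from iK5-TERT mice was hybridised to Affymetrix mouse arrays of 45101 probe sets. The 16 arrays were read as coming from 4 mice, and the 4 arrays of 24 h are reported. The authors' deposited intensity values are on a linear scale: dChip was used by the authors both to normalize arrays through an invariant probe set and to reduce each probe set to a model-based value of perfect-match minus mismatch signal. That step leaves many dim probe sets near the lowest value of 1, and 1425 cells are empty. Of the probe sets 34958 carried 1 gene symbol in the platform's annotation, 932 several and 9211 none, and 64 were controls.

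A floor was set at the table's 20th percentile (7.71), and lower intensities were set to it (0.301% of the values kept) before the log2 step; this understates changes of dim genes. Probe sets above the table's median (34.4) on at least 2 arrays were kept (25576, of which 25564 could be tested at 24 h), and the brightest over the 16 arrays stood for its gene. A probe set could therefore be kept through the 2 TERT-off arrays of 24 h alone. limma 3.58.1 in R 4.3.3 was fitted once to all 16 arrays with 1 mean for each of 8 groups, a random effect of mouse (consensus correlation 0.0728) and an intensity trend, so that the spread was pooled over times. Each p-value was two-sided and adjusted over all probe sets by the Benjamini-Hochberg method, with a threshold of 0.05. The contrasts were TERT-off minus TERT-on at 24 h, and that difference minus the one at 0 h. The study applied significance analysis of microarrays to its time course; its further supplementary methods were not used here. The exact permutation test of 2 arrays against 2 cannot reach the threshold and was not used. The number of arrays limits the precision. The p-values measure the spread between arrays of a group, pooled over all times. With a correlation of 0.0728, serial biopsies of 1 mouse counted almost as separate samples. The pooled spread takes in the arrays of 0 h, where the TERT-off mice lay far apart in hair shaft keratins (4.52 against 10.61). The fit was tested on simulated data.

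Genes were named by a rule: Tert and Krt5, the 12 largest rises and falls among called genes with all 4 values and no overlap between cohorts, up to 4 called members of each list, and for lists with under 2 calls the 2 members of largest difference; other list members are given as values and were chosen after these were seen. The gene lists, the rule and the choice of these arrays were made with earlier results of these data known, so no list is independent support. Lists are described by counts and medians, with no set test. Promoters came from RefSeq (GRCm38.p6); those of Ccl2 and Krt33a were not used here. Alternatives varied the floor, filter and normalization, how the mouse entered the fit, which arrays were used and how probe sets of a gene were joined. Figures were drawn with matplotlib 3.10.9.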

Additional observations from a re-analysis of the deposited data

Results flagged for a closer look

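Cxcl13 was flagged because the cohorts differed more at 24 h than at 0 h by a test of that difference itself: the change was 2.65 on the log2 scale, higher at 24 h in both TERT-off mice than in both TERT-on mice (limma, adjusted p = 0.0476). The size was stable, between 2.48 and 2.86 in the other fits that gave it, and its adjusted p ranged from 0.0101 to 0.813 over them. Another probe set of Cxcl13 gave a difference of 3.25 at 24 h. TERT-off skin already had Cxcl13 at 1291 and 926 at 6 h.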

How the results depend on the processing

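The limits are the number of mice and the floor. With 2 mice a cohort, the count of calls turned on single mice, and of 64 named genes that were called, 64 lost their call when TERT-on replicate 1 was left out and 61 when its partner was, none of them changing direction. Genes near the floor have no order, and their differences are bounds.

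The 230 genes higher and 74 lower became 61 and 15 with no filter on dim probe sets, 618 and 502 with the arrays of 24 h alone, and 311 and 176 without the arrays of 0 h. Leaving out 1 mouse gave 0 to 220 higher and 0 to 261 lower. Calls of probe sets, 459 in the main fit, became 178, 1768 and 769 in the same order, and 1 to 696 with 1 mouse left out. Centring each array on its median gave 187 higher and 101 lower, and quantile normalization 208 and 92, so that the higher share of calls moved from 75.7% to 64.9% and 69.3%. The 1 gene called for the change from 0 h became 19 with the floor at the table's median and 0 with centred arrays, with the mouse ignored, without the 0 h array of low Gapdh ratio and with no intensity trend, and 0 to 20 with 1 mouse left out. The cause was not tested. The 16 lists with a median of at least 1 in size became 14 to 20, and the 7244 genes without overlap 6936 to 7384. Of the named genes Cd22 alone changed sign, from 0.09 to -0.0153 without TERT-off replicate 1, with 0.20 without TERT-off replicate 2.

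With the replicate number as a replicate block, 414 genes were higher and 222 lower, 966 probe sets were called, and the change from 0 h had 0 calls. The numbers did not pair the mice across cohorts: the correlation of their deviations was -0.05, -0.12, 0.11 and 0.08 at 0, 6, 12 and 24 h.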

Other observations

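Of the 230 genes that rose 63 were in a list, and of the 74 that fell 6. The genes named next were chosen after their values were seen, and all passed the limma test at 24 h. Acute-phase proteins were among the others that rose: Saa2 rose by 2.56 or more and was under the floor on all 4 arrays of 0 h, Saa1 rose by 1.90 with a difference of 0.04 at 0 h, Ptx3, a pattern-recognition protein, by 3.96 and Serpina3n, a protease inhibitor, by 2.43. Genes of myeloid cells rose as well, as in Itgam, an integrin of neutrophils and macrophages (2.32), Ccr1, a receptor of CC chemokines (3.15), Tlr2, a receptor of bacterial lipoproteins (1.59), and Ncf1 and Ncf4, subunits of the phagocyte oxidase (1.77 and 2.10). Prok2, a secreted ligand made by neutrophils, rose by 2.92 or more and was likewise under the floor at 0 h. Among signalling genes Stat3, which carries the signal of interleukin-6, rose by 0.93, Fosl1, a subunit of AP-1, by 2.30, and Il4ra, a receptor chain of interleukin-4 and interleukin-13, by 2.00. In the matrix Eln, elastin, rose by 1.91 and Prelp, a proteoglycan, by 1.49, and in the vessels Nos3, the endothelial nitric oxide synthase, rose by 1.47 and Thbd, thrombomodulin, by 1.58. Ctla4 and Icos, receptors of activated and regulatory T cells, rose by 1.36 and 1.30, the latter with 1.18 at 0 h.

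Among the genes that fell outside the lists, several act in mitosis: Nek2, a centrosomal kinase, fell by 1.62, Cenpa, the centromeric histone, by 1.33, Racgap1, of cytokinesis, by 1.21 and Stmn1, which destabilises microtubules, by 1.06. Cdkn1b, an inhibitor of the cell cycle, fell by 1.00 too. Sox4, a factor of progenitor cells, fell by 1.20, Notum, an enzyme that inactivates Wnt ligands, by 0.82, and the ephrins Efnb1 and Efna3 by 1.21 and 0.67. Aldh1a3, which makes retinoic acid, fell by 1.26.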
